A study of Mus musculus with 4 samples.

Results

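The genes described here are the S100 and annexin families of calcium-binding proteins, compared between islet-like clusters grown from pancreatic stromal cells and native islets of the mouse. They were chosen by gene name alone: non-control probes named S100a or Anxa followed by a number, or named S100b, S100g or S100z. This gave 28 genes (16 S100 and 12 annexin) on 37 probes, out of 34821 gene names on 55681 probes of the array. Most S100 proteins are small dimers with EF-hand calcium-binding loops that bind partner proteins when calcium rises, and some are released from cells and act on surface receptors. Annexins bind acidic membrane phospholipids when calcium rises, and several work in complexes with an S100 dimer in membrane traffic, membrane repair and the cortical cytoskeleton. In the pancreas, S100A8 and S100A9 are best known from neutrophils and monocytes, S100A4 from fibroblasts, and annexins A3, A10 and A13 from epithelia.

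RNA came from Swiss albino mice, labelled male and 10 to 12 weeks old, and each of 4 single-colour Agilent arrays held 1 sample. For all samples pancreata of 2 to 4 mice were digested together with collagenase and plated for 48 h. The islets (2 arrays) were flushed from these flasks and purified; their titles name 48 h of culture and their descriptions fresh isolation, which the labels do not reconcile. The clusters (2 arrays) came from the attached fibroblast-like cells, passaged and then held in serum-free medium with insulin, transferrin and selenium in low-adherence dishes, with 0.3 mM taurine from day 3 and 3 mM taurine, 100 mM nicotinamide and GLP-1 from day 7, and were collected on day 10. Whether the replicates of a group are separate pools or cultures is not in the labels; the p-values then speak only of the differences among these 4 arrays, which can be technical.

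Between 59.67% and 63.55% of non-control spots were flagged well above background on each array, and no spot was saturated. Markers were checked as summed scaled signals. The 7 mesenchymal markers summed to 669 and 790 in clusters against 25.0 and 33.0 in islets, while the 6 epithelial markers summed to 0.0877 and 0.0923 against 1611 and 1740. The 6 acinar markers summed to 1.29 and 1.45 in clusters against 2224 and 3550 in islets, so the islet RNA held exocrine transcripts. On both islet arrays these sums were far above those of the beta cell markers given below. The islet arrays are therefore not a reference of endocrine tissue alone, though signals of different probes do not measure relative amounts of RNA. Of 7 beta cell markers, Iapp, Slc2a2, G6pc2 and Ucn3 were not well above background on either cluster array, and Ucn3 was not so on the islet arrays either. The 7 summed to 0.533 and 0.914 in clusters against 18.2 on islet replicate 2 and 123 on islet replicate 1. In bulk samples like these, fewer cells of a type and less RNA per cell cannot be told apart.

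Of the 28 genes, 27 were tested and 17 passed, 5 higher and 12 lower in clusters. A gene was tested when both arrays of at least 1 group had a probe of it well above background, and passed when its limma adjusted p, taken over all 24595 genes tested, was under 0.05. S100z was not well above background on any array and was not tested. Over all genes 54.9% passed, 26.6% higher and 28.2% lower, so a call by itself is common in this comparison. Of 15 S100 genes 4 were higher (26.7%) and 6 lower (40.0%), and of 12 annexins 1 was higher (8.33%) and 6 lower (50.0%). All 17 also changed by at least 2-fold, as did 4985 of the 6545 higher and 4929 of the 6947 lower calls over all genes. As shares of genes tested, these members were 18.5% upward and 44.4% downward, against 20.3% and 20.0% of all genes. The median log2 fold change, clusters minus islets, was -0.17 for S100 genes, -0.92 for annexins and -0.10 for all genes. The median size of the change, regardless of sign and with undetected genes at their bound, was 1.58 for S100 genes and 1.32 for annexins against 0.74 for all genes. With fitted values in place of bounds, the S100 median was 2.44, the value of the undetected S100g. The values of the groups did not overlap for 24 of the 27 genes, against 79.9% of all genes.

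**Figure D1:**
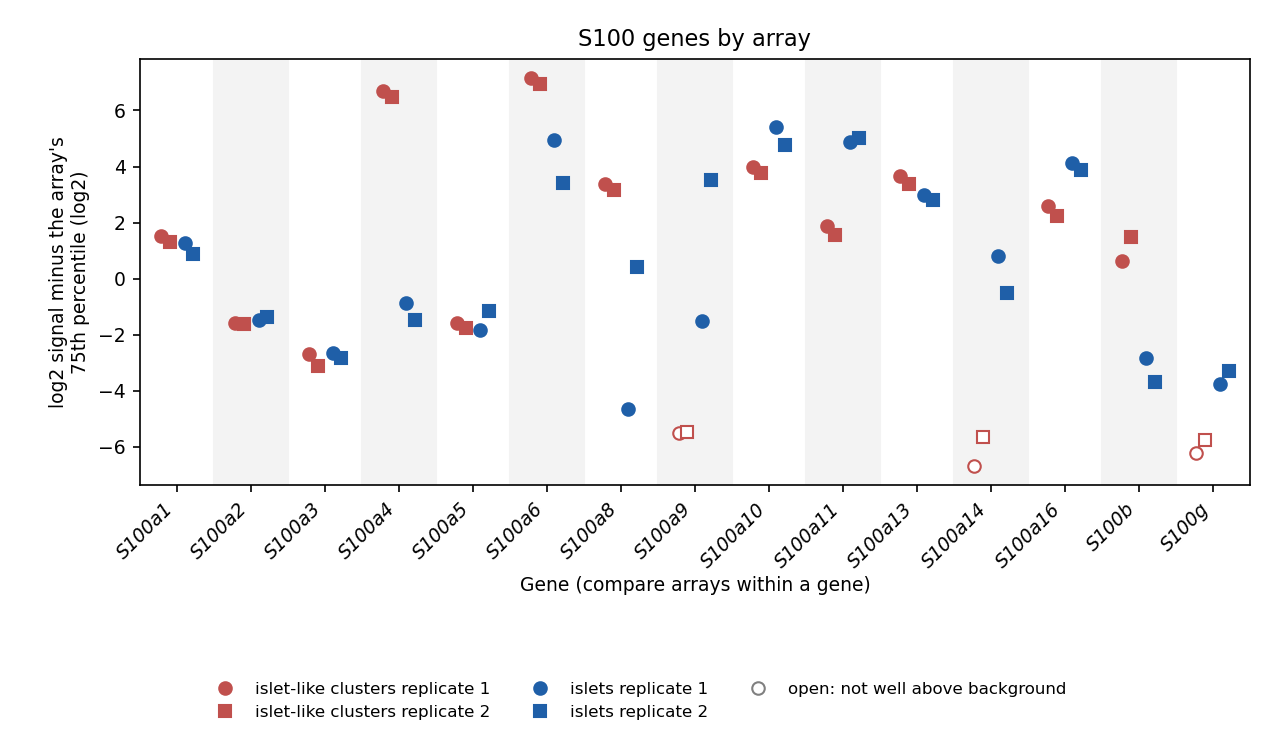
Each point is 1 array; the y axis is the log2 signal minus that array's 75th percentile, and open points were not well above background. S100a4, S100a6, S100a8 and S100b lie higher on both cluster arrays, and S100a8 and S100a9 are far apart between the 2 islet arrays.

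S100a4 showed the widest gain among the members. Its protein binds non-muscle myosin and is used as a fibroblast marker. All values below are log2 signals relative to the 75th percentile of the array. S100a4 lay at 6.69 and 6.48 on the cluster arrays and at -0.86 and -1.46 on the islet arrays. Both cluster arrays were far above both islet arrays, a difference of 7.75 ± 0.27 (SE), or 215-fold, with adjusted p = 2.67e-08. Its probe lies on chromosome 3 from 90409908 to 90409967 (mm9). A second probe, from 90409734 to 90409793, read 6.13 on cluster replicate 2 and -0.96 and -0.88 on the islet arrays; its spot on cluster replicate 1 was non-uniform and was left out.

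S100a6, calcyclin, a protein of proliferating and stromal cells, was higher as well. It lay at 7.15 and 6.94 in clusters and at 4.96 and 3.40 in islets, a difference of 2.87 ± 0.43 (7.30-fold, adjusted p = 0.000413). The islet arrays differed from each other by 1.56, a gap reached by 1.57% of all genes. Without islet replicate 1 the difference was 3.65 and without islet replicate 2 it was 2.09. The call did not hold with a variance trend and robust fitting (adjusted p = 0.0992). All 7 mesenchymal markers tested were higher in clusters too, with Col1a1 at 3.94 ± 0.26, and their part in the S100a4, S100a6 and Anxa1 values was not tested.

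S100b, a glial and Schwann cell protein also made in other cell types, lay at 0.61 and 1.48 in clusters and at -2.83 and -3.68 in islets. All cluster values were above all islet values, by 4.30 ± 0.36 (19.7-fold, adjusted p = 8.29e-06), and by 2.85 with normexp background correction. The Schwann and glial markers were not higher beside it. Of 5 tested, none was higher, Sox10 differed by 0.00 ± 0.23 (adjusted p = 0.993), Foxd3 was not well above background on any array, and the 6 summed to 0.881 and 1.01 in clusters against 1.1 and 1.23 in islets.

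S100a8 and S100a9 moved in opposite directions in clusters. Their proteins form the heterodimer calprotectin, which neutrophils and monocytes hold in large amounts, and the genes are near neighbours on chromosome 3. S100a8 lay at 3.38 and 3.16 in clusters, at -4.66 on islet replicate 1 and at 0.43 on islet replicate 2. S100a9 lay at -5.51 and -5.48 in clusters, not well above background, at -1.50 on islet replicate 1 and at 3.52 on islet replicate 2. So S100a8 was higher on each cluster array than on either islet array and S100a9 was lower on each, while in islets both genes were high on replicate 2 and low on replicate 1.

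For S100a8 the difference was 5.38 ± 1.22 (SE, 41.7-fold, adjusted p = 0.00459). Against islet replicate 1 alone it was 243-fold and against islet replicate 2 alone 7.16-fold. The S100a8 value of islet replicate 1, -4.66, lay near the lowest well-detected signal of that array, -5.00. The 243-fold and 41.7-fold differences rest on this dim value and are imprecise. The call did not hold without cluster replicate 1 (adjusted p = 0.129) or cluster replicate 2 (0.12), nor with 4 other settings: a variance trend and robust fitting (0.232), non-uniform spots kept (0.0567), the values of the authors (0.0564) or scaling over commonly detected probes (0.0826). With normexp the difference was 4.11. For S100a9 the bound was at least 53.6-fold lower, with limma adjusted p = 0.00145 and a fitted difference of -6.51 ± 1.20. The bound, written "at least", sets the islet mean against the lowest well-detected signal of each cluster array, and was 9.38-fold from islet replicate 1 and 306-fold from islet replicate 2. That call did not hold with a variance trend (adjusted p = 0.176) or without cluster replicate 1 (0.0811) or cluster replicate 2 (0.0806), and the difference was -3.68 with normexp.

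The islet arrays differed by 5.08 in S100a8 and by 5.03 in S100a9, replicate 2 being the higher. The S100a8 gap has the dim value of islet replicate 1 at its low end. Only 3 of 24595 genes, S100a8 among them, had an islet gap as wide as that of S100a8, and 4 as wide as that of S100a9. In clusters the level of S100a9 is known only as a bound.

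Myeloid markers moved partly with these values. On islet replicate 2 as against replicate 1, 10 of 12 myeloid markers were higher and 2, Csf1r and the undetected Cxcr2, were lower (median difference 0.86), with Mpo higher by 2.59, Aif1 by 2.09 and Ly6g by 1.27. There 5 of 6 acinar markers (median 0.71) and 6 of 7 mesenchymal markers (median 0.34) were also higher and 5 of 7 beta cell markers lower (median -2.60). The neutrophil marker Ly6g did not rise well above background on the cluster arrays (bound at least 80.2-fold under islets), Cxcr2 did so on no array, and Ptprc, Cd68, Aif1 and Elane were lower. Tyrobp (4.10 ± 0.43) and Csf3r (1.04 ± 0.23) were higher in clusters. Itgam, the first marker of the list, differed by 0.40 ± 0.24 (adjusted p = 0.181). The 12 markers summed to 112 and 130 in clusters and to 81.9 and 113 in islets, most of it from Csf3r and Itgam. Without those 2 genes the sums were 7.09 and 9.57 in clusters against 22.3 on islet replicate 1 and 49.7 on islet replicate 2. Their part in the S100a8 and S100a9 values was not tested.

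**Figure D2:**
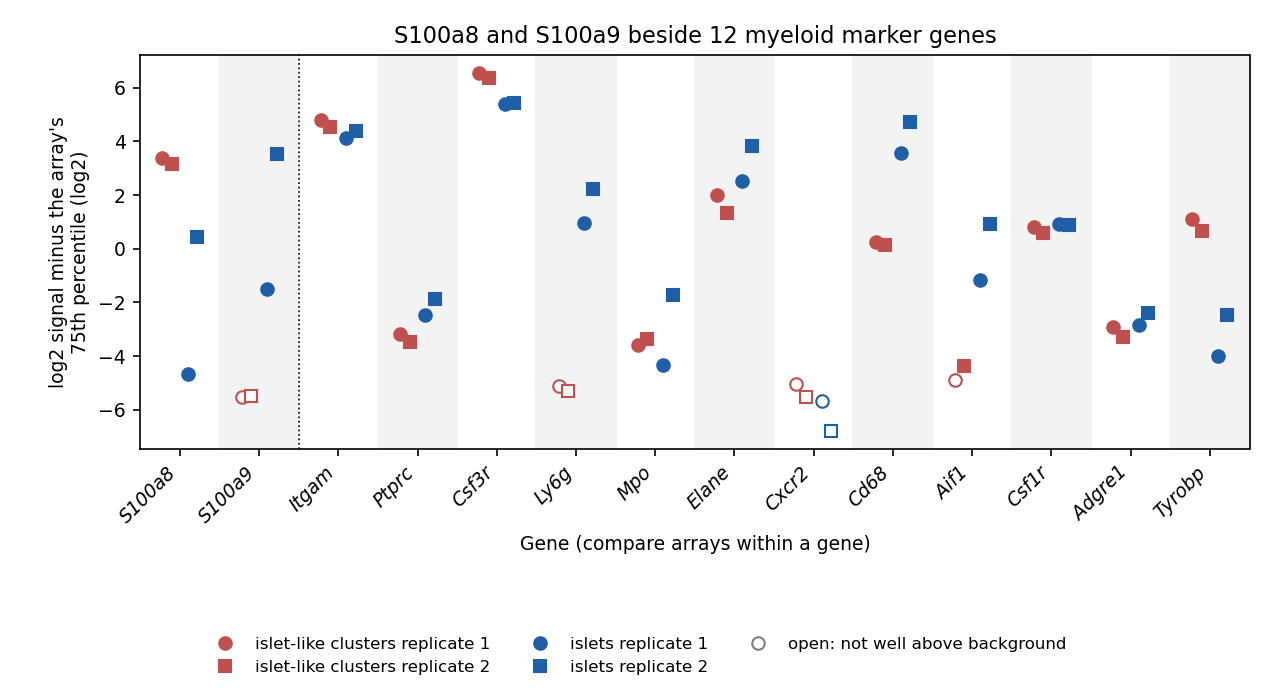
Log2 signal minus the array's 75th percentile for S100a8, S100a9 and, right of the dotted line, 12 myeloid markers; each point is 1 array and open points were not well above background. S100a8 is at 3.38 and 3.16 in clusters where S100a9 is not detected, and islet replicate 2 lies above islet replicate 1 for both genes and for 10 of 12 markers.

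The opposite readings rest on 1 probe per gene, so the first 30 of the 60 bases of each are shown, as the files give them. On mm9 the S100a8 probe spans 90473778 to 90473837 of chromosome 3, plus strand, and the S100a9 probe 90496573 to 90496632, minus strand.
S100a8 probe: cttgttcagagaattggacatcaatagtga
S100a9 probe: gtctaaagggaatggcttactcaatggcct
The full probes share no run longer than 6 bases with each other on either strand. With the other member probes, the S100a8 probe shared at most 8 bases in a row and the S100a9 probe at most 9. Only member probes were compared and no transcripts were searched, so whether each probe detects its gene alone was not tested.

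Because the neighbours S100a8 and S100a9 diverged, the 250 bases before the RefSeq start of each are printed, with those of the higher genes S100a4 and Anxa1 (GRCm38.p6, a later build than the probes' mm9). Capitals mark matches on either strand to TATAAA (the TATA box), TGANTCA (AP-1), TTGCNNAA (C/EBP) or a core NF-kB site, and no matches overlap in these windows. They lie at chr3:90668821-90669070 (S100a8, plus strand), chr3:90695722-90695971 (S100a9, minus), chr3:90603520-90603769 (S100a4, plus) and chr19:20390672-20390921 (Anxa1, minus).
S100a8: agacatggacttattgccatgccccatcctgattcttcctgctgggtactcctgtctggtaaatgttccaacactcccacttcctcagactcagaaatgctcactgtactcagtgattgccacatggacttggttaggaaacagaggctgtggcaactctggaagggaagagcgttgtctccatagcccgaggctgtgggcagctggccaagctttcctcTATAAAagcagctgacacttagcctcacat
S100a9: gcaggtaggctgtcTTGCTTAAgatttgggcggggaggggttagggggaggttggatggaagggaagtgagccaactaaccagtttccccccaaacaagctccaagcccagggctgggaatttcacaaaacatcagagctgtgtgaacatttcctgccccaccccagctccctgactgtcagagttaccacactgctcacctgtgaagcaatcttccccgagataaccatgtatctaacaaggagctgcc
S100a4: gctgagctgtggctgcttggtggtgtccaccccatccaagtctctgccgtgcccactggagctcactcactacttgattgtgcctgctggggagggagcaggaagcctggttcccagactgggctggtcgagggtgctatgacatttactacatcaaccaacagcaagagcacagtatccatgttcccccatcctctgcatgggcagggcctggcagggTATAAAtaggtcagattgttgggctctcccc
Anxa1: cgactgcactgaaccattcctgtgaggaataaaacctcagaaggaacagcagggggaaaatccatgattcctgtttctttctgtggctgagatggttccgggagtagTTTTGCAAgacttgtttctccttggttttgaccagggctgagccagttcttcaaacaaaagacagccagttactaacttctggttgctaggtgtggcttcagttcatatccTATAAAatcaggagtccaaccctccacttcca
TATAAA began 30 bases before the start in S100a8, 31 in S100a4 and 32 in Anxa1, and was not found in the S100a9 window. The windows of S100a6 and S100b, also higher in clusters but not printed, held no match to TATAAA or to the other motifs. The reference table gave a window for 22 of the 28 genes. TATAAA was present for 3 of the 5 higher genes and for 1 of the 8 lower genes with a window, against 12.4% of all 32851 windows. In all it was present for 6 of the 22 genes, among them Anxa2 and S100a3, which did not pass. TGANTCA was found for none of the 5 and for 3 of the 8 (6.75% of all windows), TTGCNNAA for 1 and 4 (9.56%), and the NF-kB site for none and 1 (1.41%). A gene with several starts counted if any window matched. These are matches of letters and not evidence of binding.

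The S100 genes lower in clusters were S100a9, S100a10, S100a11, S100a14, S100a16 and S100g. S100a14, an epithelial S100 protein, lay at 0.81 and -0.51 in islets, and neither cluster array had it well above background. The bound was at least 29.5-fold lower, with adjusted p = 2.6e-06, and 46.7-fold or 18.7-fold from islet replicate 1 or 2 alone. With normexp its fitted difference went from -6.31 to -2.74. S100a11, a partner of annexin A1 in keratinocytes and other epithelia, lay at 1.88 and 1.57 in clusters and at 4.86 and 5.03 in islets, -3.22 ± 0.24 (9.31-fold lower, adjusted p = 3.44e-06). Here the arrays within each group stood close together.

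S100a16, which is widely expressed, lay at 2.60 and 2.25 in clusters against 4.12 and 3.89 in islets, and its probes gave -1.58 ± 0.25 (adjusted p = 0.000508) and -2.43 ± 0.23. The groups did not overlap. S100a10, the partner of annexin A2, lay at 3.97 and 3.76 against 5.40 and 4.75, or 2.31-fold lower (adjusted p = 0.00479). The S100a10 call did not hold without islet replicate 1 (difference -0.89, adjusted p = 0.215), cluster replicate 1 (0.0513) or cluster replicate 2 (0.0758). S100g, calbindin D9k, an intestinal calcium buffer, was dim throughout: -3.77 and -3.31 in islets, and in clusters below detection as defined above. Its bound was at least 2.29-fold lower, with adjusted p = 5.53e-05. With normexp S100g differed by -0.50 and did not pass (adjusted p = 0.0709).

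S100a1, S100a2, S100a3, S100a5 and S100a13 did not pass. S100a13, which takes part in the release of signal-peptide-less growth factors, came closest at 0.62 ± 0.24 (95% interval 0.08 to 1.17, adjusted p = 0.052), with 3.68 and 3.38 in clusters and 3.00 and 2.80 in islets. It passed in 7 alternatives. The muscle and neural protein gene S100a1 differed by 0.34 (interval -0.22 to 0.91), S100a2 by -0.17 (-0.68 to 0.34), S100a3 by -0.16 (-0.72 to 0.41) and S100a5 by -0.18 (-0.81 to 0.45). The 4 intervals include 0, and the signs of S100a2, S100a3 and S100a5 turned when arrays were scaled to their median.

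The genes of chromosome 3 did not move as a block. In probe order on mm9, S100a1 and S100a13 did not pass, S100a14 and S100a16 were lower, S100a2 and S100a3 did not pass, S100a4 was higher, S100a5 did not pass, S100a6 and S100a8 were higher, and S100a9, S100a11 and S100a10 were lower. Of these 13 S100 genes 3 were higher, 5 lower and 5 did not pass. Over all genes 26.6% were higher and 28.2% lower, so mixed calls are common in any set of genes here. S100a5, with no call, lies between the higher genes S100a4 and S100a6.

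**Figure D3:**
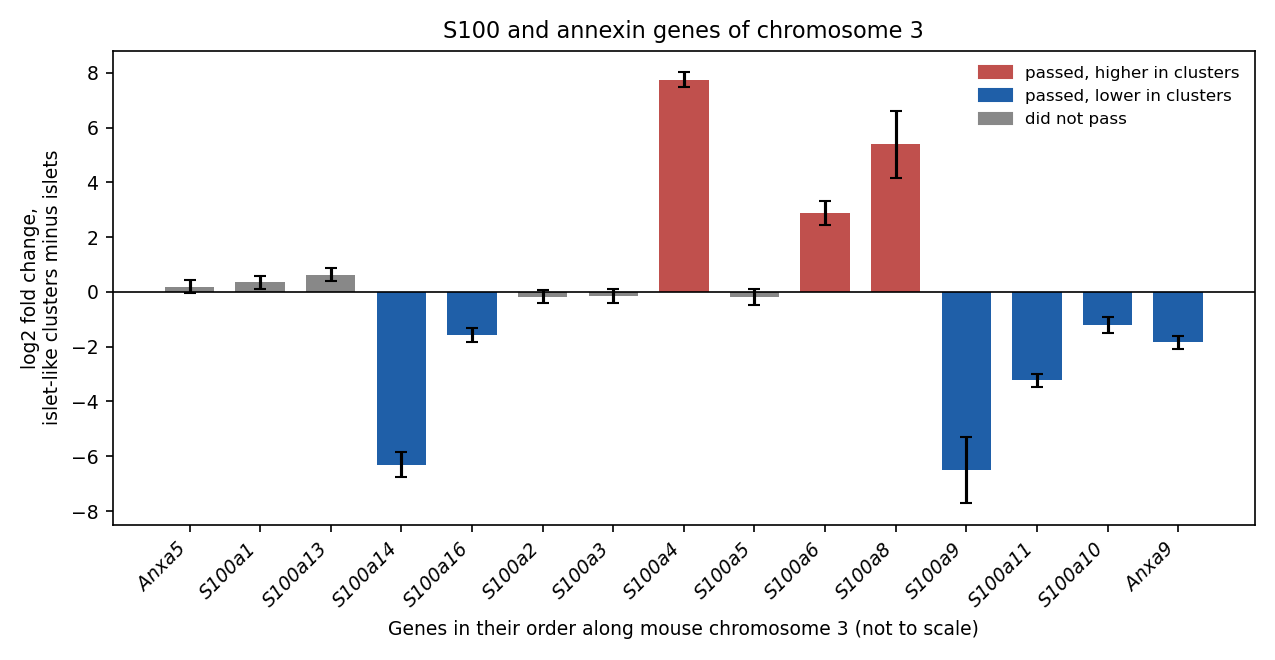
Bars give the log2 fold change of clusters minus islets for the 15 members on chromosome 3 in their order along it, with the SE of the limma fit (n = 2 arrays per group). S100a4, S100a6 and S100a8 are the only bars above 0 that passed, and S100a9 beside them reaches -6.51.

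Among annexins, Anxa1 alone was higher in clusters. Annexin A1 restrains phospholipase A2 and acts outside the cell on formyl peptide receptors. Anxa1 lay at 6.81 and 6.68 in clusters and at 2.15 and 2.07 in islets, a difference of 4.64 ± 0.23 (24.8-fold, adjusted p = 2.07e-07), and its second probe gave 4.95 ± 0.23. The arrays of a group differed by 0.13 or less, far below the difference. The call held in all 17 alternatives, which ranged from 4.44 to 4.83.

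**Figure D4:**
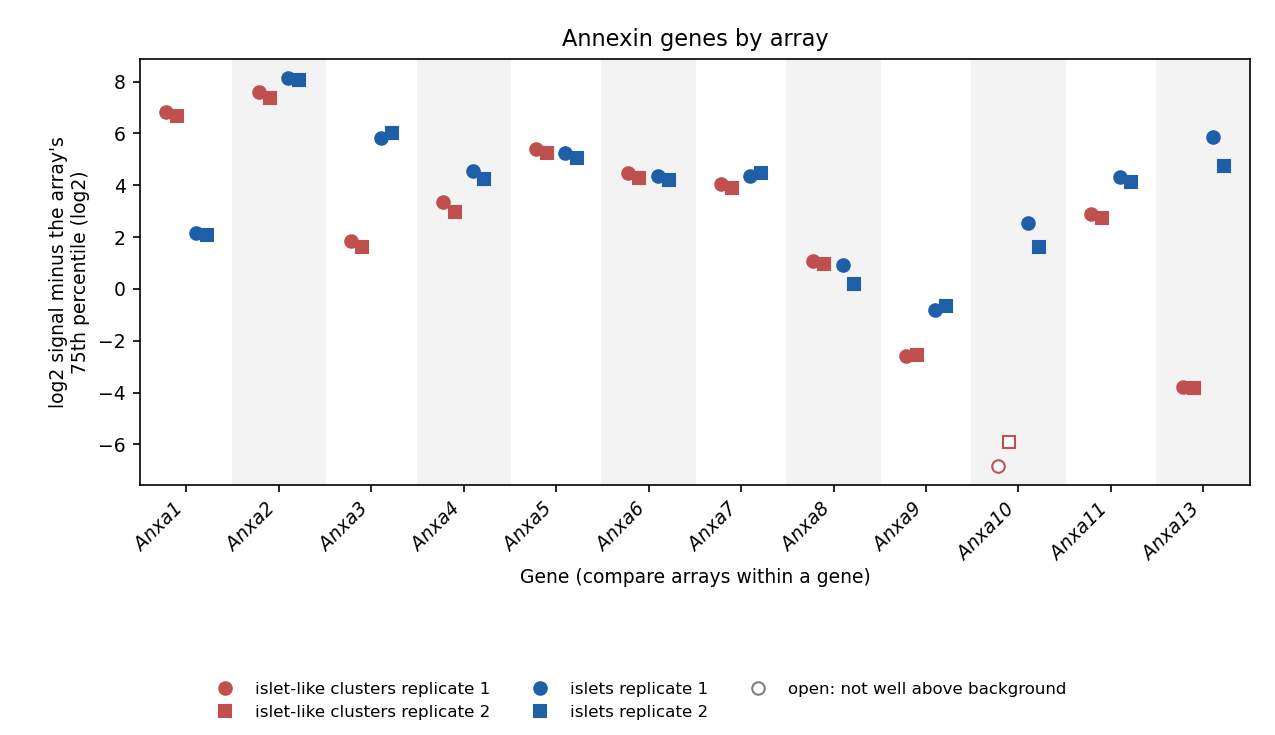
Each point is 1 array; the y axis is the log2 signal minus that array's 75th percentile, and open points were not well above background. Anxa1 is higher on both cluster arrays, Anxa3, Anxa10 and Anxa13 are far lower, and Anxa2, Anxa5, Anxa6, Anxa7 and Anxa8 lie close together in the groups.

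The lower annexins fell into a strong and a mild set. Anxa13, an annexin of intestinal and kidney epithelium, lay at -3.79 and -3.83 in clusters and at 5.87 and 4.75 in islets, -9.11 ± 0.35 (554-fold lower, adjusted p = 4.34e-08), and -7.41 with normexp. Anxa10, known from gastric epithelium, lay at 2.54 and 1.63 in islets, and on no cluster array was it well above background. The bound was at least 113-fold lower, with adjusted p = 1.15e-07, and 155-fold or 82.6-fold from islet replicate 1 or 2 alone. It had a fitted difference of -8.45, or -4.67 with normexp. Anxa3, found in epithelia and neutrophils, lay at 1.85 and 1.62 against 5.83 and 6.0, -4.18 ± 0.24 (18.1-fold lower, adjusted p = 5.09e-07).

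Among the milder ones, Anxa9, an annexin with little calcium binding, was 3.59-fold lower (-2.60 and -2.53 against -0.80 and -0.65, adjusted p = 0.000114; difference -1.11 with normexp). Anxa11, which tethers RNA granules to lysosomes, was 2.67-fold lower (2.88 and 2.75 against 4.33 and 4.14, adjusted p = 0.000685), with -1.42 ± 0.23 and -1.15 ± 0.25 from its probes. Anxa4, an annexin of secretory epithelia, was 2.35-fold lower (3.37 and 2.96 against 4.54 and 4.25, adjusted p = 0.00281). The Anxa4 call did not hold without islet replicate 1 (adjusted p = 0.115). Its other probe, for another transcript, was dim and was not tested. Markers of several cell types were lower in clusters beside these genes. All 6 epithelial markers were lower (Cdh1 at least 2837-fold), as were all 6 acinar markers (Cpa1 at least 21391-fold), all 5 endothelial markers (Pecam1 by 2.59-fold) and 4 of 5 beta cell markers tested (Ins1 by 122-fold). The endothelial markers summed to 2.87 and 3.53 in clusters against 9.38 and 10.2 in islets. The part of these cell types in the lower S100 and annexin values was not tested.

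Anxa2, Anxa5, Anxa6, Anxa7 and Anxa8 did not pass. Anxa2, the plasmin-surface and exocytosis annexin, lay at 7.60 and 7.36 in clusters and 8.13 and 8.05 in islets, -0.61 ± 0.23 (interval -1.14 to -0.08, adjusted p = 0.0503). It passed in 8 alternatives, but with quantile normalization the difference was only -0.045 (limma adjusted p = 0.839). Anxa5, the protein used to stain phosphatidylserine on dying cells, differed by 0.19 (interval -0.34 to 0.72). Anxa6, a regulator of membrane cholesterol, differed by 0.10 (-0.43 to 0.62) and its groups overlapped. The signs of Anxa5 and Anxa6 turned when arrays were scaled over commonly detected probes. Anxa7, a partner of sorcin, gave -0.46 ± 0.23 and 0.36 ± 0.23 from its probes, the only member among 7 with several tested probes whose probes differed in sign. Anxa7 passed in 5 alternatives. Anxa8 differed by 0.45 (-0.20 to 1.1), with 0.94 on islet replicate 1 and 0.20 on islet replicate 2.

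Anxa8 also shows how tightly a spot repeats. Its probe was printed in 10 spots per array, whose log2 signals had an SD of 0.05 on cluster replicate 2, 0.12 on islet replicate 1 and 0.09 on islet replicate 2. On cluster replicate 1 the SD was 0.29, and 0.09 without 1 spot flagged as an outlier.

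Known binding pairs were set side by side. S100a10 and Anxa2 differed by -1.21 and -0.61 between the groups, of which the first passed. S100a11 differed by -3.22 ± 0.24 and Anxa1 by 4.64 ± 0.23. S100a6 differed by 2.87 ± 0.43 and Anxa11 by -1.42 ± 0.23. Thus the 2 latter pairs had members called in opposite directions. Over all genes 26.6% were higher and 28.2% lower, so opposite calls also arise between unrelated genes. The pairs were picked by hand, other pairings were not set side by side, and whether binding partners move apart was not tested.

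Receptors and partners came from a list of 32 genes, of which 25 were tested, 7 higher and 7 lower in clusters (28.0% each, near the shares of all genes given above). Of 5 S100 receptors and co-receptors tested, 2 were higher and 2 lower. Tlr4, the innate immune receptor on which S100A8 acts, lay at 2.78 and 2.70 in clusters and -1.97 and -1.78 in islets, 4.61 ± 0.23 (24.4-fold, adjusted p = 2.32e-07). Its co-receptor Cd14 was 6.34-fold lower (4.50 and 4.28 against 7.01 and 7.11), and the fatty acid receptor Cd36 was 3.55-fold higher (-0.95 and -1.10 against -3.12 and -2.59). With normexp Tlr4 differed by 3.82 and Cd36 by 0.95. Ager, the receptor for advanced glycation products, was not tested because its signal did not pass the filter.

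Neither of the 2 formyl peptide receptors tested, Fpr1 (1.00 ± 0.75) and Fpr3 (0.25 ± 0.24), passed. Of 5 membrane repair genes tested, 2 were higher and none lower. Pla2g4a, the cytosolic phospholipase A2, lay at 6.66 and 6.42 in clusters and 0.08 and -0.18 in islets, 6.59 ± 0.24 (96.3-fold, adjusted p = 3.29e-08). Of 4 partners of the annexin A2 and S100A10 complex tested, 2 were higher and none lower. Among them Dlc1, a GTPase-activating protein, was 3.28-fold higher (1.72 ± 0.23, 0.86 with normexp). Over all genes 26.6% were higher and 28.2% lower, and counts from 4 or 5 genes are too small to show a direction.

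Of 6 intracellular S100 partners tested 4 were lower, 2 of them by at least 2-fold, and 1 was higher, against 28.2% lower and 26.6% higher over all genes. Ezr (ezrin), which links actin to the membrane in epithelia, was 46.2-fold lower (-0.39 and -0.57 against 5.09 and 5.01, adjusted p = 7.35e-08). S100pbp was 2.96-fold lower (adjusted p = 0.000375), a call that did not hold with the mean of its probes (-0.60, adjusted p = 0.0503). Of 3 penta-EF-hand proteins tested, 1 was lower: Gca (grancalcin), whose cluster spots were both too dim for the background flag. Its bound was at least 12.3-fold lower, with adjusted p = 8.15e-07, and its fitted difference -3.87, or -1.68 with normexp.

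How far each member's difference moved with the processing is plotted for all 27 genes. Anxa1, Anxa3, S100a11 and Anxa11 have short ranges, and S100a8 and S100a9 the widest. That of S100a4 runs from 7.24 to 8.05.

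**Figure D5:**
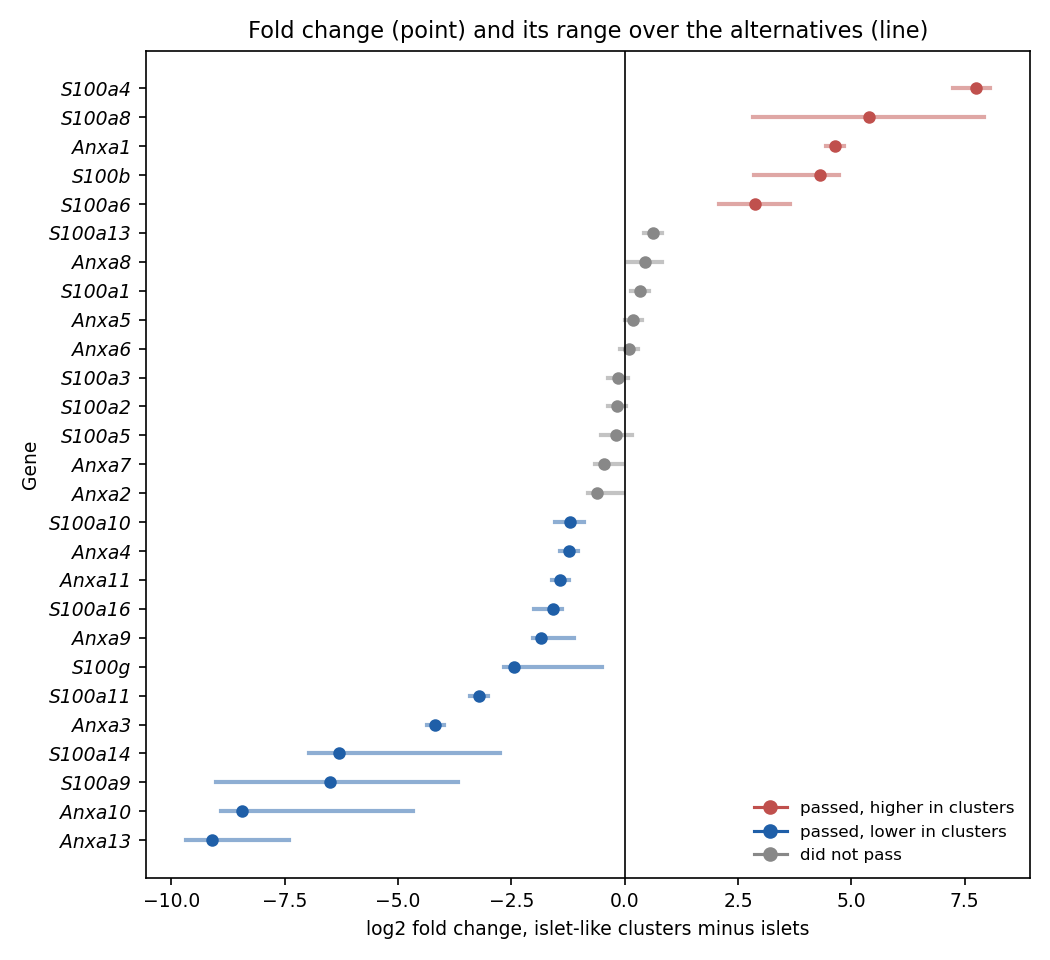
Points give the log2 fold change of clusters minus islets and lines its lowest to highest value over the alternatives run, for 27 genes ordered by fold change. The line of S100a8 runs from 2.84 to 7.93 and that of S100a9 from -9.02 to -3.68, and no line of a gene that passed crosses 0.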

How the data were processed

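Per the file headers, Agilent Feature Extraction 11.5.1.1 wrote the deposited scanner files, which hold linear spot intensity, background-subtracted and detrended; dim spots carry a surrogate value. Probe positions are on mm9. The authors' value table holds log2 values, which correlated with the scanner values of their arrays at r = 0.99995 or higher; these served as an alternative.

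For each probe the measure was log2 processed signal minus each array's 75th percentile over non-control probes. Control and non-uniform spots (510 on cluster replicate 1, at most 26 elsewhere) were left out and spots of a probe averaged; the left-out spots moved the 75th percentile of cluster replicate 1. Each gene was represented by its brightest probe among those well above background on both arrays of a group (34971 probes, 24595 genes). The fit used limma 3.58.1 (R 4.3.3) with lmFit and eBayes (2-sided, 9.06 total degrees of freedom), adjusted by Benjamini-Hochberg, threshold 0.05, and tested on simulated data. Means of 2 arrays limit the precision. A gene with no probe well above background in a group has only a bound there.

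The members, lists and tests were chosen with earlier results of these data known. Members were all accounted for; of the partner lists the 4 largest called changes in each direction were named, and of each marker list the first gene; other markers named were chosen after their values were seen. Accessions of 36 of 37 member probes matched the reference gene table (GRCm38.p6), with no change of symbol. Promoter sequences are from RefSeq. No batch was separable, since all 4 arrays lay on 1 slide. The result of 1 Schwann and glial marker is not reported here.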

Additional observations from a re-analysis of the deposited data

How the results depend on the processing

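Over 17 alternatives, 1 of them chosen after seeing the data (population outlier spots left out), 11 of the 17 members that passed kept their call in every fit that could be run, and none changed direction. The exceptions were Anxa4, S100a6, S100a8, S100a9, S100a10 and S100g. Of the 10 that did not pass, Anxa2, Anxa7 and S100a13 passed in some. With only probes well above background on all arrays, 3 S100 genes were lower in place of 6, since S100a9, S100a14 and S100g then lack a tested probe. Leaving out 1 array gave 7649 to 10119 genes called in all against 13492 (8265 without islet replicate 1, 7649 without islet replicate 2), 3 to 4 higher and 4 to 6 lower S100 genes, 1 higher and 5 to 6 lower annexins, and 10 to 12 partner genes; the lone array is then assumed to vary like the others.

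Signs turned only in differences that did not pass. Scaling over probes detected on all arrays gave Anxa5 -0.00070, Anxa6 -0.093 and Sox10 -0.19. Scaling to the median gave S100a2 0.025, S100a3 0.040 and S100a5 0.013, and quantile normalization S100a3 0.011. Leaving out 1 array at a time, Anxa6 ranged from -0.00070 to 0.19, S100a3 from -0.37 to 0.064, S100a5 from -0.53 to 0.16 and Sox10 from -0.10 to 0.11. Sox10 was -0.049 with normexp, -0.045 with non-uniform spots kept and -0.050 with the values of the authors. The cause was not tested. Median scaling moved the median of all genes to 0.09 and its share of higher calls from 48.5% to 58.1%, and scaling over commonly detected probes moved them the other way, to -0.29 and 40.3%.

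Whether the replicate numbers of the titles pair the samples is not in the labels. Over genes, the deviations of cluster replicate 1 and islet replicate 1 from their group means correlated at -0.0235. This sets 1 contrast of each group against the other and cannot decide whether the samples are paired. With the replicate number as a block 11306 genes passed, and S100 (4 higher, 6 lower), annexin (1 and 6) and partner counts (13 for 14) were alike. Normexp moved the fold of 8 of the 17 called members by over 1.5 times, most for dim signals, which limit these values.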
